A study of Homo sapiens with 6 samples.

Results

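CD44, EHF, ABTB2, CAT, TRAF6, HIPK3, APIP, PDHX, TRIM44 and LDLRAD3 lie on the short arm of chromosome 11, on the centromeric side of the ultra-conserved element PAX6_Ta and beyond its neighbour RCN1. They are genes of a list set by symbol and position, between RCN1 and the edge of a window of 5 Mb around the element. The selection rule uses no measured value, but the list was drawn up with earlier results of these libraries known. All 10 were found among the 52088 entries of the count table, and all 10 were among the 20746 genes tested. The measurements are bulk RNA-seq counts from K562, a human erythroleukaemia cell line that grows in suspension, in 6 libraries.

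Control (2 libraries) carries the genotype WT in the labels. PAX6_Ta KO (2 libraries) and PBX3_Cl KO (2 libraries) are the lines labelled PAX6_Tarzan Knockout and PBX3_Claudia Knockout. In each the named element had been cut out with a pair of guides on a plasmid that also carries Cas9 (pBP48), after which cells were selected with puromycin, and picked clones were checked by PCR and Sanger sequencing. PBX3_Cl lies on another chromosome, so that line is an edited line in which PAX6_Ta was not the target. All groups grew in RPMI medium with fetal bovine serum and antibiotics, and no drug treatment is given for them. The labels give Control no guides, so that loss of an element cannot be told apart from transfection, selection and cloning in a comparison with Control. Nothing in the labels says that replicates 1 and 2 of a group came from separate cultures or clones. The count columns of an edited group share a single line name, which is not explained. The p-values therefore cover only how far these libraries vary, possibly for technical reasons. A difference cannot be told apart from the history of a single line.

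The genes belong to no common pathway. CD44 is the cell surface receptor for the matrix polysaccharide hyaluronan, and LDLRAD3 is a membrane protein with LDL receptor class A domains. TRAF6 is a ubiquitin ligase that carries signals from Toll-like and interleukin 1 receptors to NF-κB, and TRIM44 and ABTB2 are a tripartite motif protein and a BTB-domain protein. HIPK3 is a nuclear serine/threonine kinase, EHF an ETS-family transcription factor typical of epithelia, CAT is catalase, which breaks down hydrogen peroxide, PDHX is the E3-binding subunit of the pyruvate dehydrogenase complex, and APIP is an enzyme of the methionine salvage pathway that also binds APAF1.

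The guides are shown because they define the deletion. They were taken from the study's supplementary tables and matched to GRCh37, and the capitals mark the PAM, the 3 genomic bases that Cas9 needs beside its target.
PAX6_Ta guide under the U6 promoter, chr11:31809917-31809939, minus strand: gctttctgtgcggttgtggaTGG
PAX6_Ta guide under the H1 promoter, chr11:31811316-31811338, plus strand: caagtccattccttccccagTGG
The predicted cuts enclose 1410 bp (GRCh37 chr11:31809923-31811332).

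The promoters of EHF, CD44 and LDLRAD3 are shown because these genes had the largest differences between the groups. Each run holds the 250 bases before a RefSeq transcript start in GRCh38.p14, read on the strand of the gene, with every CG dinucleotide in capitals.
EHF, chr11:34624007-34624256, plus strand: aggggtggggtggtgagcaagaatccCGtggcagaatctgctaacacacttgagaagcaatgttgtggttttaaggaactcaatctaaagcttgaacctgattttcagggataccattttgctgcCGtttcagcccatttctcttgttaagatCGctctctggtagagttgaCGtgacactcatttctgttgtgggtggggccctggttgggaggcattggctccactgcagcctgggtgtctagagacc
CD44, chr11:35138921-35139170, plus strand: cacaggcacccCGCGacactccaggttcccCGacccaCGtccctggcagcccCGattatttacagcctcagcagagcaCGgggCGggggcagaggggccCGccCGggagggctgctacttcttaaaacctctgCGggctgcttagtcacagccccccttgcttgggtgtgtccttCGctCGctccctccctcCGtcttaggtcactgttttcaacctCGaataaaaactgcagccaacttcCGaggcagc
LDLRAD3, chr11:35943812-35944061, plus strand: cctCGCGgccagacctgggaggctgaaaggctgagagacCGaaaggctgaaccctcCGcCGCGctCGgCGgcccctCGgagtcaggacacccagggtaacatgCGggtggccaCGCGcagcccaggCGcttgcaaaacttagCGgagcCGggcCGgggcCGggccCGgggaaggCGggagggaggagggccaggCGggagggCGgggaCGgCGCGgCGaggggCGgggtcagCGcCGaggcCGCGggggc
The EHF run held 4 CG at 50% G+C, the CD44 run 15 at 62.4% and the LDLRAD3 run 30 at 76.4%, beside medians of 11 CG and 58.0% over 35116 promoter runs of the same length. A further EHF start had 2 CG at 47.6%. The letters GGGCGG, the GC box, were searched on both strands. They occurred at 2 places in CD44 and at 2 in LDLRAD3, were not in either EHF run, and were in 42.6% of all runs.

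APIP and PDHX are transcribed away from each other, and the stretch between their RefSeq starts is shown because it is short enough to be shared by both promoters.
APIP to PDHX, GRCh38.p14 chr11:34916380-34916437, plus strand: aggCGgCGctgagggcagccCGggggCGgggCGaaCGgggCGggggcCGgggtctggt
These 58 bases held 8 CG at 84.5% G+C. RefSeq also gives PDHX a start further into the gene, and in the longer GENCODE models the exons of APIP and PDHX overlap by 152 bases on opposite strands.

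The libraries held 45912044 to 60908470 counts and 27768 to 29669 genes with a count. The erythroleukaemia marker list was present, with all 15 genes tested and a summed level of 6820 to 7720 CPM (counts scaled to a common library size) in Control, 9970 to 11600 in PAX6_Ta KO and 8470 to 9540 in PBX3_Cl KO. Of these markers, 4 were higher and 2 lower in PAX6_Ta KO than in Control. The higher ones include HBG2, HBE1 and LMO2, which are genes of 11p, and with the median of that arm taken out 1 was higher and 2 lower. In PBX3_Cl KO edgeR called 0, with 5 at an unadjusted p under 0.05 and 2 called by DESeq2. With the replicate number as a block HBG2 (edgeR adjusted p = 0.00716) and HBE1 (edgeR adjusted p = 0.0357) were called higher there. The fibroblast list summed to 53.8 to 138 CPM in Control, 31.0 to 34.1 in PAX6_Ta KO and 69.0 to 116 in PBX3_Cl KO, with LUM and FAP at 0 counts in every library. These sums hide opposite moves. COL1A2 had 2922 and 6703 counts in Control, 853 and 992 in PAX6_Ta KO and 61 and 78 in PBX3_Cl KO. COL1A1 rose by 4.96 on the log2 scale in PAX6_Ta KO (edgeR adjusted p = 4.89e-05). COL1A1 passed the filter on low counts in no Control library, so its test was partly conditioned on its counts in the edited lines. Of the 10 tested genes of the list, 3 were higher and 2 lower in PAX6_Ta KO, and 3 higher and 1 lower in PBX3_Cl KO. The lymphoid list summed to 17.7 to 21.9, 19.4 to 28.2 and 9.74 to 16.6 CPM, with MS4A1 at 0 throughout. Of its 7 tested genes 1 was higher in PAX6_Ta KO and edgeR called 0 in PBX3_Cl KO, where 4 had an unadjusted p under 0.05 and DESeq2 and the fit with the block called 1 each. No gene was the target of the deletion. RCN1, the landmark at which the stretch of the 10 genes begins, had 20 and 23 counts in Control, 278 and 219 in PAX6_Ta KO, and 5 and 1 in PBX3_Cl KO. PAX6, whose annotated span holds the segment between the cuts, had 580 and 313, 642 and 538, and 433 and 400 counts, and its difference of PAX6_Ta KO from Control was 0.57 ± 0.27 on the log2 scale (edgeR adjusted p = 0.248).

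In PAX6_Ta KO against Control, 9 of the 10 genes were higher by edgeR's quasi-likelihood test (adjusted p below 0.05 over all tested genes), beside 7.21% of all tested genes called higher and 4.21% called lower. The exception was ABTB2. For all 10 genes both PAX6_Ta KO libraries lay above both Control libraries, against 27.0% of tested genes, and the median log2 fold change was 0.92 against -0.02 over all tested genes. EHF passed the filter on low counts only outside Control (in 2 PAX6_Ta KO libraries and 1 PBX3_Cl KO library), so its difference was partly a condition of being tested, whereas the other 9 passed in every library. Without replicate 1 or 2 of Control the median log2 fold change of the 10 genes was 0.90 or 0.92. Without replicate 1 or 2 of PAX6_Ta KO it was 0.84 or 0.98. Fewer of the 10 genes were called in these fits, which leave 1 library in a group. The share of all tested genes called in them is not given. EHF and CD44 were called in each of the 14 alternative analyses. In bulk RNA a change in the share of cells and a change in RNA per cell cannot be told apart.

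The rest of the arm differed from Control as well. Over 336 tested genes of 11p outside the window the median log2 fold change was 0.60 in each of the edited lines, whereas 731 tested genes of 11q had medians of -0.01 and 0.00. Outside the window 92 genes of 11p were higher and 8 lower in PAX6_Ta KO, and 88 were higher and 7 lower in PBX3_Cl KO. The 11p median was then taken out of the fold changes of 11p genes. In that fit only EHF and CD44 of the 10 genes kept their calls in PAX6_Ta KO, and only LDLRAD3 in PBX3_Cl KO. The share of all tested genes called in that fit is not given, and the limit of the filter on low counts holds for EHF here too. How much of each smaller difference belonged to the arm was not tested further.

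**Figure D1:**
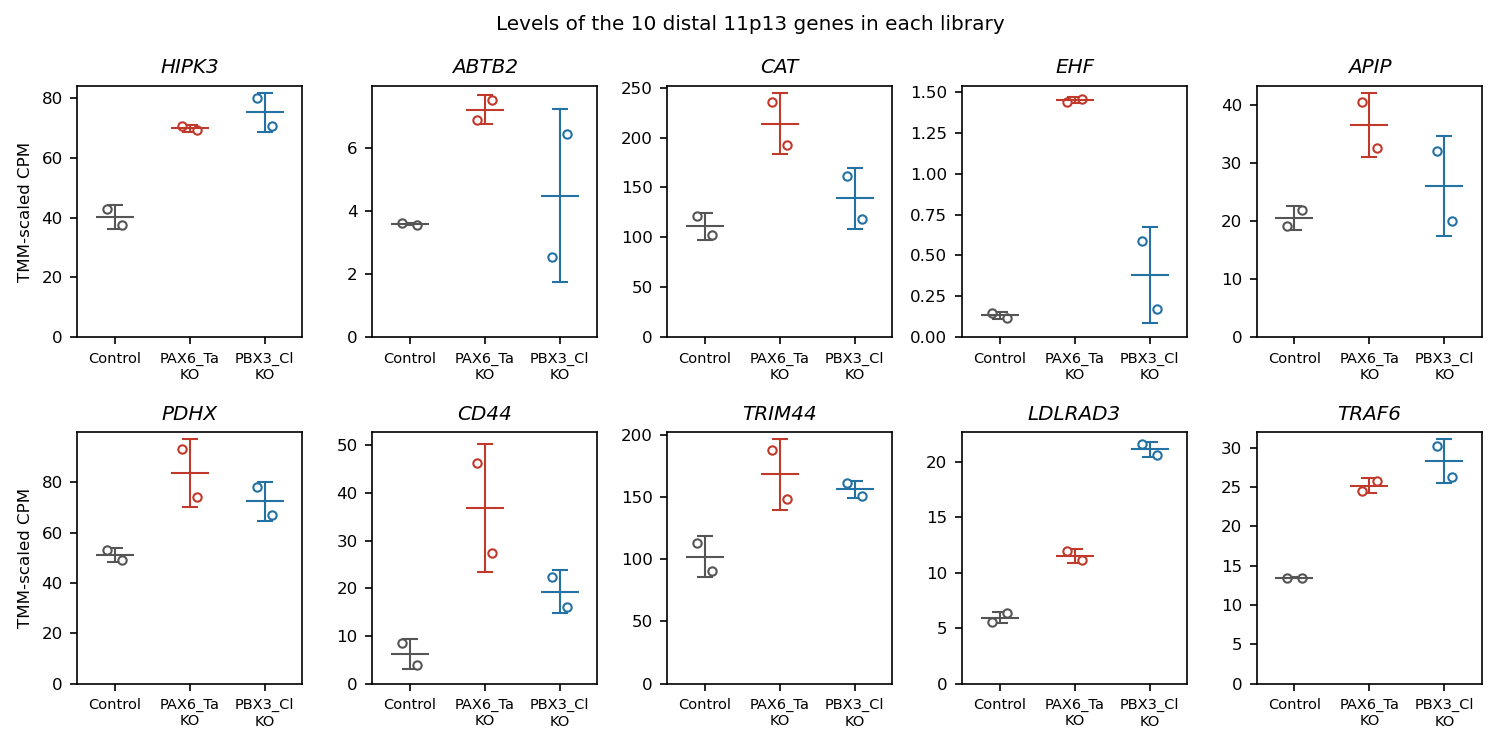
Level of each of the 10 genes in TMM-scaled CPM (vertical axis, from 0, a separate scale per gene) in Control, PAX6_Ta KO and PBX3_Cl KO; open circles are the 2 libraries of a group, the dash is their mean and the bar ± 1 SD. The PAX6_Ta KO circles lie above the Control circles in all 10 panels, by the widest ratio in EHF and CD44, while LDLRAD3 is highest in PBX3_Cl KO.

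In PBX3_Cl KO against Control, 4 of the 10 genes were higher (HIPK3, CD44, LDLRAD3 and TRAF6), beside 6.28% of tested genes called higher and 2.69% called lower. For 7 genes both libraries lay above both Control libraries, against 23.5% of tested genes. The median log2 fold change was 0.76 against -0.01 over all tested genes. With the replicate block 6 were called, PDHX and TRIM44 in addition, beside 13.5% of tested genes called in either direction in place of 8.97%.

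Between the edited lines, EHF was higher and LDLRAD3 lower in PAX6_Ta KO than in PBX3_Cl KO, beside 5.26% of tested genes called higher and 6.71% called lower. Both PAX6_Ta KO libraries lay above both PBX3_Cl KO libraries for 5 genes (24.1% of tested genes) and below them for 2 (25.6%). With the replicate block 4 were called, CAT and CD44 in addition and both higher, beside 18.7% of tested genes called in either direction in place of 12.0%. Both lines were compared with the same Control libraries, so that their differences from Control are not independent of each other.

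CD44 (GRCh37 chr11:35160429-35253949, 3.35 Mb from the element) had 8.49 and 3.98 CPM in Control replicates 1 and 2, 46.3 and 27.4 in PAX6_Ta KO, and 22.4 and 16.1 in PBX3_Cl KO. The groups did not overlap, and Control was the lowest and PAX6_Ta KO the highest, although the Control libraries themselves differed by 2.13-fold. CD44 was 5.89-fold higher in PAX6_Ta KO than in Control (log2 fold change 2.56 ± 0.36 SE, edgeR adjusted p = 5.02e-04) and kept its call with the 11p median taken out (1.95, adjusted p = 0.00293). In PBX3_Cl KO it was 3.08-fold higher (1.62 ± 0.35, edgeR adjusted p = 0.0111). That call was lost without PBX3_Cl KO replicate 1 (adjusted p = 0.0892) and with the 11p median taken out (1.02, adjusted p = 0.102). The difference between the edited lines was 0.94 ± 0.34 on the log2 scale (95% interval 0.20 to 1.68, edgeR adjusted p = 0.103, or 0.0101 with the replicate block). The exons of CD44 share 154 bases with 2 genes on the opposite strand. Whether reads were counted by strand is not stated, and one of those genes, CD44-AS1, had 1 to 8 counts per library.

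LDLRAD3 (chr11:35965531-36253686, 4.15 Mb), the other cell surface protein of the group, had 5.58 and 6.32 CPM in Control, 11.9 and 11.1 in PAX6_Ta KO, and 21.6 and 20.6 in PBX3_Cl KO. The groups were well apart, and here PBX3_Cl KO was the highest. LDLRAD3 was 3.54-fold higher in PBX3_Cl KO than in Control (1.83 ± 0.22, edgeR adjusted p = 2.12e-04), and this call held in all 14 alternatives, including 1.23 (adjusted p = 0.00348) with the 11p median taken out. In PAX6_Ta KO it was 1.93-fold higher (0.95 ± 0.22, edgeR adjusted p = 0.0139). That call was lost when any single Control or PAX6_Ta KO library was left out (adjusted p 0.054 to 0.136) and with the 11p median taken out (0.35, adjusted p = 0.423). Between the edited lines it was lower in PAX6_Ta KO (log2 fold change -0.88 ± 0.22, edgeR adjusted p = 0.02), a call lost without PAX6_Ta KO replicate 1 (adjusted p = 0.136) or replicate 2 (adjusted p = 0.255).

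EHF (chr11:34642640-34684835, 2.83 Mb) was barely expressed in K562, with 9 and 6 counts in the Control libraries, 69 and 77 in PAX6_Ta KO, and 26 and 8 in PBX3_Cl KO. In CPM these were 0.15 and 0.119, 1.44 and 1.46, and 0.59 and 0.175. The PAX6_Ta KO libraries were nearly equal and lay above all others, while the PBX3_Cl KO libraries differed by 3.38-fold, the lower of them just above Control. EHF was 10.55-fold higher in PAX6_Ta KO than in Control (3.4 ± 0.60, edgeR adjusted p = 0.00239), and 2.80 (adjusted p = 0.0084) with the 11p median taken out. As EHF passed the filter on low counts in no Control library, its tests were partly conditioned on the higher counts of the edited lines. The difference of PBX3_Cl KO from Control was 1.48 ± 0.64 (edgeR adjusted p = 0.213), and was called only without PBX3_Cl KO replicate 2 (adjusted p = 0.0401). Against PBX3_Cl KO, EHF was 1.92 ± 0.54 higher in PAX6_Ta KO (edgeR adjusted p = 0.0361), with the call lost without PAX6_Ta KO replicate 1 (adjusted p = 0.105), PAX6_Ta KO replicate 2 (adjusted p = 0.0975) or PBX3_Cl KO replicate 2 (adjusted p = 0.108).

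Markers of epithelia, the tissue in which EHF is usually found, summed to 731 to 968 CPM in Control, 1310 to 2030 in PAX6_Ta KO and 660 to 1130 in PBX3_Cl KO. The list moved in both directions, with KRT18 and KRT19 higher and EPCAM lower in PAX6_Ta KO. Of the 7 tested, EPCAM fell by 3.92 on the log2 scale (edgeR adjusted p = 3.09e-06), and in PBX3_Cl KO 1 gene was higher. EPCAM differed by -0.85 in PBX3_Cl KO (edgeR adjusted p = 0.0513, or 0.0252 with the replicate block), and DESeq2 called 2 of the list there. KRT5 and KRT14 had 0 counts in every library, and CDH1, GRHL2, ESRP1, OVOL1 and OVOL2 stayed under 10. The part of these genes in the EHF result was not tested.

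TRAF6 (chr11:36505319-36531822, 4.69 Mb) had 13.4 and 13.5 CPM in Control, 24.5 and 25.8 in PAX6_Ta KO, and 30.2 and 26.3 in PBX3_Cl KO. Control was the lowest, and both edited lines lay close to each other with PBX3_Cl KO slightly above. TRAF6 was 1.87-fold higher in PAX6_Ta KO (0.90 ± 0.20, edgeR adjusted p = 0.00985) and 2.10-fold higher in PBX3_Cl KO (1.07 ± 0.20, edgeR adjusted p = 0.00409). The call in PAX6_Ta KO was lost when any single Control or PAX6_Ta KO library was left out (adjusted p 0.0651 to 0.0808). That in PBX3_Cl KO was lost only with the 11p median taken out (0.47, adjusted p = 0.2), and the value for PAX6_Ta KO was then 0.30 (adjusted p = 0.447). The edited lines differed by -0.17 (95% interval -0.59 to 0.26, edgeR adjusted p = 0.681).

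TRIM44 (chr11:35684323-35839557, 3.87 Mb) had 113 and 90.5 CPM in Control, 188 and 148 in PAX6_Ta KO, and 161 and 151 in PBX3_Cl KO. Both edited lines lay above Control and overlapped each other. It was 1.65-fold higher in PAX6_Ta KO (0.72 ± 0.21, edgeR adjusted p = 0.0424), a call lost when any single Control or PAX6_Ta KO library was left out (adjusted p 0.0566 to 0.42). The difference in PBX3_Cl KO was 0.62 ± 0.21 (edgeR adjusted p = 0.0972, or 0.0187 with the replicate block). With the 11p median taken out the differences were 0.12 and 0.02.

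ABTB2 (chr11:34172534-34379557, 2.36 Mb) had 3.61 and 3.56 CPM in Control, 6.87 and 7.52 in PAX6_Ta KO, and 2.54 and 6.42 in PBX3_Cl KO. The PAX6_Ta KO libraries were the highest, whereas the PBX3_Cl KO libraries lay on either side of Control and differed by 2.53-fold. The difference in PAX6_Ta KO was 1.00 ± 0.38 (95% interval 0.18 to 1.83, edgeR adjusted p = 0.124). It was called when the fit held only Control and PAX6_Ta KO (adjusted p = 0.0139), without PBX3_Cl KO replicate 1 (0.0133) or replicate 2 (0.0159), and with no filter on low counts (0.0285). In PBX3_Cl KO the difference was 0.32 (95% interval -0.51 to 1.15, edgeR adjusted p = 0.754), and -0.28 with the 11p median taken out.

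HIPK3 (chr11:33278218-33378569), the nearest of the 10 genes to the element at 1.47 Mb, had 43.0 and 37.5 CPM in Control, 70.7 and 69.1 in PAX6_Ta KO, and 79.8 and 70.6 in PBX3_Cl KO. Control lay below both edited lines, which overlapped. HIPK3 was 1.74-fold higher in PAX6_Ta KO (0.80 ± 0.19, edgeR adjusted p = 0.0152) and 1.87-fold higher in PBX3_Cl KO (0.90 ± 0.19, edgeR adjusted p = 0.0089). The first call was lost when any single Control or PAX6_Ta KO library was left out (adjusted p 0.0553 to 0.189), and the second without Control replicate 2 (adjusted p = 0.123). With the 11p median taken out the differences were 0.19 (adjusted p = 0.657) and 0.30 (adjusted p = 0.449). The edited lines differed by -0.11 (95% interval -0.51 to 0.30, edgeR adjusted p = 0.804).

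CAT (chr11:34460481-34493607, 2.65 Mb) had 121 and 102 CPM in Control, 236 and 193 in PAX6_Ta KO, and 161 and 118 in PBX3_Cl KO. PAX6_Ta KO was the highest, and PBX3_Cl KO overlapped Control. CAT was 1.92-fold higher in PAX6_Ta KO (0.94 ± 0.22, edgeR adjusted p = 0.0145), a call lost when Control replicate 2 (adjusted p = 0.131) or PAX6_Ta KO replicate 1 (adjusted p = 0.139) was left out and with the 11p median taken out (0.34, adjusted p = 0.434). The difference in PBX3_Cl KO was 0.32 (95% interval -0.15 to 0.80, edgeR adjusted p = 0.495), and -0.27 with the 11p median taken out. The edited lines differed by 0.62 ± 0.22 (edgeR adjusted p = 0.0933, or 0.0128 with the replicate block).

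PDHX (chr11:34937376-35042138, 3.13 Mb) had 53.2 and 49.3 CPM in Control, 93.4 and 74.2 in PAX6_Ta KO, and 78.1 and 67.2 in PBX3_Cl KO. Both edited lines lay above Control and overlapped each other. It was 1.64-fold higher in PAX6_Ta KO (0.71 ± 0.20, edgeR adjusted p = 0.0361), and 0.50 ± 0.20 higher on the log2 scale in PBX3_Cl KO without passing the test (edgeR adjusted p = 0.162, or 0.0454 with the replicate block).

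APIP (chr11:34874641-34937926, 3.06 Mb) had 19.2 and 22.0 CPM in Control, 40.5 and 32.7 in PAX6_Ta KO, and 32.2 and 20 in PBX3_Cl KO. The PBX3_Cl KO libraries differed by 1.60-fold and overlapped Control. APIP was 1.78-fold higher in PAX6_Ta KO (0.83 ± 0.24, edgeR adjusted p = 0.0463), and the difference in PBX3_Cl KO was 0.34 (95% interval -0.19 to 0.87, edgeR adjusted p = 0.525). The PAX6_Ta KO calls of PDHX and APIP were lost when any single Control or PAX6_Ta KO library was left out (adjusted p 0.0544 to 0.408 for PDHX and 0.0505 to 0.321 for APIP). With the 11p median taken out, the differences in PAX6_Ta KO were 0.11 for PDHX and 0.23 for APIP.

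Of the pair that shares the stretch printed above, PDHX had more counts than APIP in every library. The ratio of PDHX to APIP counts was 2.78 and 2.24 in Control, 2.31 and 2.27 in PAX6_Ta KO, and 2.43 and 3.35 in PBX3_Cl KO. The PAX6_Ta KO ratios fell within the range of Control, and the highest ratio was in PBX3_Cl KO replicate 2, in which APIP (20 CPM) lay within the Control range and PDHX (67.2 CPM) above it.

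**Figure D2:**
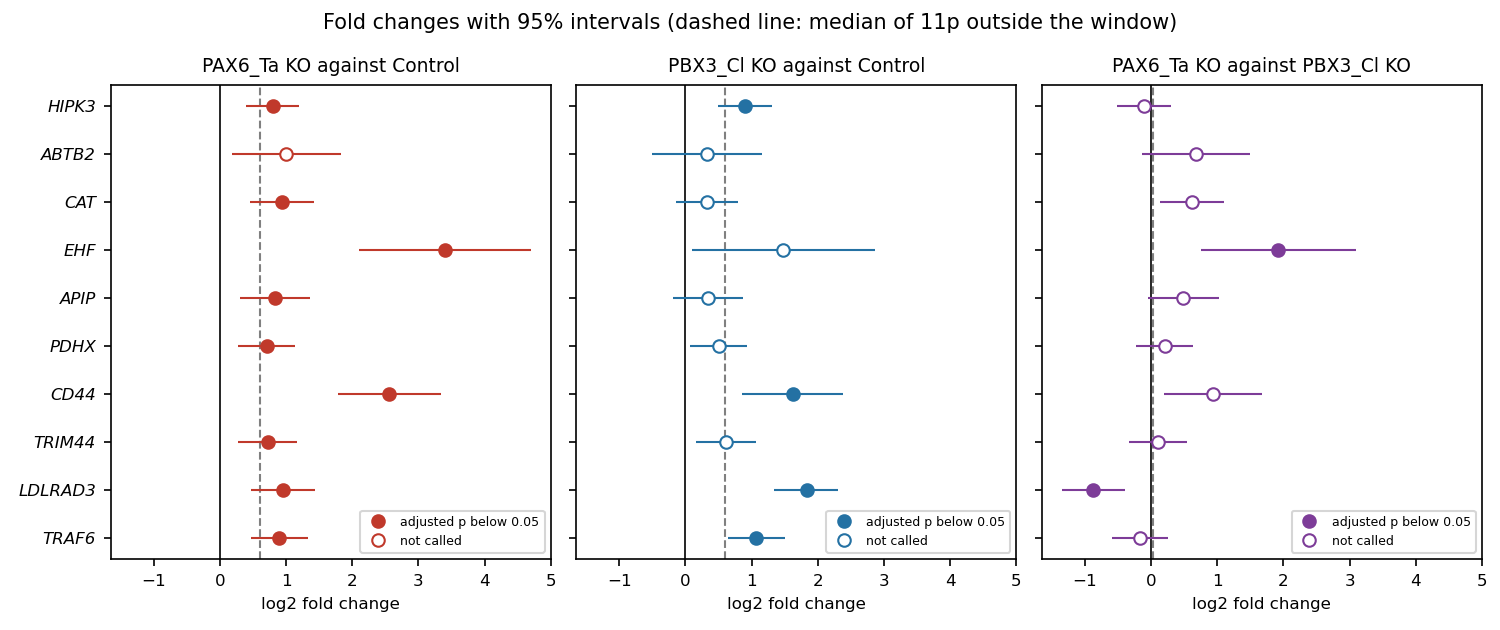
Fitted log2 fold change of each of the 10 genes (horizontal axis) with its 95% interval, for each edited line against Control (left and middle) and between the edited lines (right); filled circles have an edgeR adjusted p below 0.05 and open circles do not. The dashed line is the median of 11p outside the window (0.60, 0.60 and 0.03), and in the left panel the intervals of EHF and CD44 lie wholly to its right.

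By position, the 10 genes spanned 1.47 to 4.69 Mb from the element, and the largest of their fold changes in PAX6_Ta KO were those of EHF at 2.83 Mb and CD44 at 3.35 Mb. Between these 2 lie APIP and PDHX, with log2 fold changes of 0.83 and 0.71. Of the 69 other annotated genes in the same stretch 22 were tested, and of those 4 were higher in PAX6_Ta KO and 5 in PBX3_Cl KO. In PAX6_Ta KO their log2 fold changes ran from 0.01 to 3.93, and the highest was above that of EHF. Their median log2 fold changes were 0.47 and 0.64, beside 0.92 and 0.76 for the 10 genes. In PAX6_Ta KO against PBX3_Cl KO the medians were -0.10 for the 22 genes and 0.35 for the 10. The 10 genes were chosen with earlier results of these libraries known, so these medians do not test whether the 10 differ from the 22.

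Within a library the genes spanned a wide range of levels. Per kb of exon, the Control means ran from CAT at 31.1 ± 3.72 CPM (SD, n = 2) through PDHX (13.8), TRIM44 (7.78), HIPK3 (4.93), APIP (3.95), TRAF6 (1.66), LDLRAD3 (1.30), ABTB2 (0.721) and CD44 (0.624 ± 0.319) to EHF at 0.0203. In this order only ABTB2 and CD44 overlapped as neighbours. In PAX6_Ta KO CD44 stood sixth at 3.69 ± 1.34 CPM per kb, overlapping TRAF6 (3.10) below it. In PBX3_Cl KO LDLRAD3 stood sixth at 4.61 ± 0.152, overlapping APIP (5.0) above it, while CD44 stood eighth at 1.93. The first 5 places and the last were held by the same genes in all 3 groups.

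**Figure D3:**
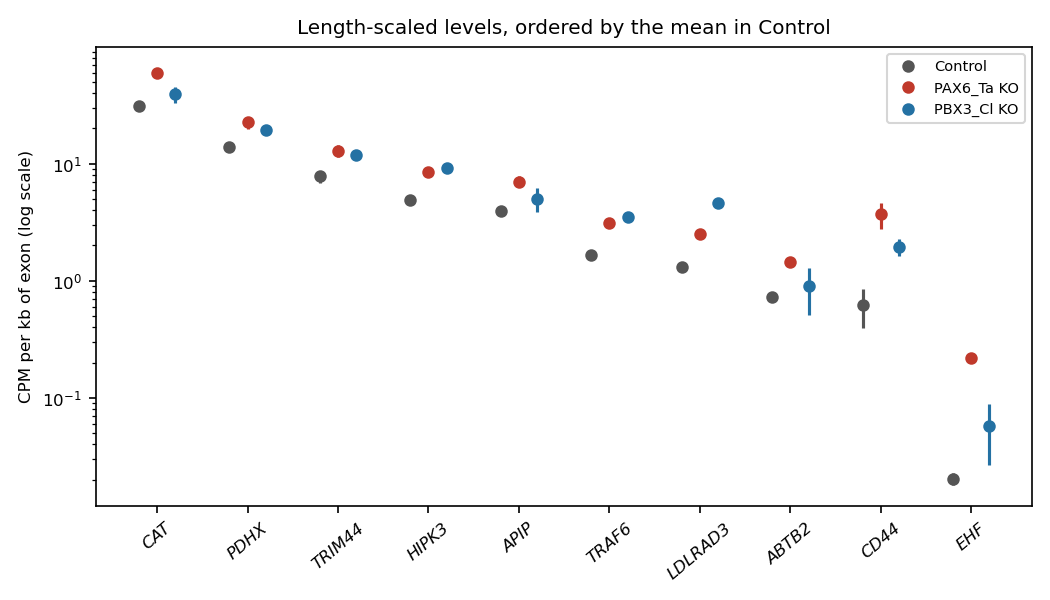
Mean level of the 10 genes in CPM per kb of exon (vertical axis, log scale) in Control, PAX6_Ta KO and PBX3_Cl KO, ordered by the mean in Control; vertical lines join the 2 libraries of a group. CAT is the highest and EHF the lowest in each group, and CD44 spans from 0.624 in Control to 3.69 in PAX6_Ta KO.

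Genes of the pathways around the 10 genes, on any chromosome, were called in both directions. Over the 9 lists 150 genes beside the 10 were tested. Of these 19 were called in PAX6_Ta KO, 11 of them higher, and 17 in PBX3_Cl KO, 11 of them higher, beside 11.4% and 8.97% of all tested genes called in either direction. With the replicate block the numbers were 33 and 27, beside 17.1% and 13.5% of all tested genes. As shares of the 150 genes, these were 12.7% and 11.3% in the first fit and 22.0% and 18% with the block.

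Among 17 tested genes of hyaluronan synthesis, breakdown and binding and other CD44 partners, 1 was higher and 3 lower in PAX6_Ta KO (median 0.04). LYVE1, the hyaluronan receptor of lymphatic endothelium, is itself a gene of 11p. It had 12 and 5 counts in Control and 334 and 139 in PAX6_Ta KO (4.95 ± 0.61, edgeR adjusted p = 1.84e-04). LYVE1 passed the filter on low counts in no Control library, so its tests were partly conditioned on its counts in the edited lines. HYAL1, a hyaluronidase, fell by 2.40 on the log2 scale (edgeR adjusted p = 8.62e-04), and SRGN, the core protein of the granule proteoglycan serglycin, fell by 1.42 (edgeR adjusted p = 0.00359). In PBX3_Cl KO 1 of the list was higher and 1 lower. The higher one was LYVE1 with 51 and 29 counts (2.54 ± 0.62, edgeR adjusted p = 0.0217). That call was lost with the 11p median taken out (adjusted p = 0.0799) and without Control replicate 2 or PBX3_Cl KO replicate 1. HYAL1 and SRGN had differences of -0.01 and 0.13 there, and between the edited lines both were lower in PAX6_Ta KO (-2.39 and -1.55, edgeR adjusted p = 9.23e-04 and 0.00205).

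Of 22 tested ETS-family factors other than EHF, 2 were higher and 3 lower in PAX6_Ta KO (median -0.20), and 2 were higher and 3 lower in PBX3_Cl KO (median -0.06). ETS1, a factor of lymphoid and endothelial cells, had 3531 and 2311 counts in Control, 268 and 182 in PAX6_Ta KO, and 61 and 54 in PBX3_Cl KO. On the log2 scale it fell by 3.53 in PAX6_Ta KO and fell by 5.35 in PBX3_Cl KO (edgeR adjusted p = 5.75e-06 and 8.04e-07). FLI1, a megakaryocyte and endothelial factor, fell by 5.78 and fell by 5.28 (edgeR adjusted p = 8.27e-04 and 0.0015). However, its Control libraries were unlike each other, with 408 and 58 counts. FLI1 passed the filter on low counts only in Control, so its tests were partly conditioned on the Control counts. FEV, a factor of serotonin neurons, rose in PAX6_Ta KO (2.91 ± 0.55, edgeR adjusted p = 0.00417) and differed by -0.22 in PBX3_Cl KO (edgeR adjusted p = 0.922).

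Of 29 tested genes of TRAF6 and NF-κB signalling, 3 were higher and 2 lower in PAX6_Ta KO (median -0.09), and 3 were higher and 1 lower in PBX3_Cl KO. With the 11p median taken out, 2 were higher in each line and the lower counts stayed the same. REL, an NF-κB subunit, fell by 1.05 in PAX6_Ta KO (edgeR adjusted p = 0.00359) and IKBKB, a kinase that releases NF-κB, fell by 0.92 (edgeR adjusted p = 0.00547). Neither was called in PBX3_Cl KO (0.17 and -0.17). Both were lower in PAX6_Ta KO than in PBX3_Cl KO (-1.22 and -0.76, edgeR adjusted p = 0.0014 and 0.0174). The IKBKB call between the edited lines was lost without PAX6_Ta KO replicate 1 or replicate 2. IRAK2, a kinase that acts ahead of TRAF6, rose in both lines (1.22 and 1.32, edgeR adjusted p = 0.00621 and 0.00469). In PAX6_Ta KO the calls of REL, IKBKB and IRAK2 were lost without PAX6_Ta KO replicate 1 (adjusted p 0.0711, 0.0784 and 0.0738), and that of IKBKB also without replicate 2 (0.0635).

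Of 16 tested subunits and regulators of the pyruvate dehydrogenase complex, 2 were higher in PAX6_Ta KO and 3 in PBX3_Cl KO (medians 0.05 and -0.02). PDK2, a kinase that inhibits the complex, had 4 and 1 counts in Control, 218 and 188 in PAX6_Ta KO, and 64 and 49 in PBX3_Cl KO (6.42 ± 0.56 and 4.74 ± 0.57, edgeR adjusted p = 1.21e-05 and 1.80e-04). PDK4, another of these kinases, had 0 counts in both Control libraries, 11 and 5 in PAX6_Ta KO and 10 and 3 in PBX3_Cl KO. With Control set to a floor of 3 counts (over both libraries), its ratio to Control was 5.86 and 5.33 in the 2 lines. These ratios leave out the counting error of the edited lines, so they are not lower bounds. The call in PAX6_Ta KO (edgeR adjusted p = 0.0323) was lost when PAX6_Ta KO replicate 1 or either Control library was left out. In PBX3_Cl KO the edgeR adjusted p was 0.0474. That call was lost with DESeq2 (adjusted p = 0.0557) and with upper-quartile factors (0.065). It was also lost when PBX3_Cl KO replicate 1 or either Control library was left out. PDK2 and PDK4 passed the filter on low counts in no Control library. Their tests were therefore partly conditioned on the higher counts of the edited lines.

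Of 21 tested antioxidant enzymes beside CAT, 1 was called in PAX6_Ta KO, with a median of -0.03. This was GPX8, a glutathione peroxidase of the endoplasmic reticulum, with 1 and 2 counts in Control, 31 and 36 in PAX6_Ta KO and 10 and 3 in PBX3_Cl KO. Its ratio to Control was 24.5 in PAX6_Ta KO (exact 95% counting interval 8.04 to 122) and 5.33 in PBX3_Cl KO (1.46 to 29.2). GPX8 passed the filter on low counts in no Control library, so its test was partly conditioned on its counts in the edited lines. In PBX3_Cl KO edgeR called 0 of the 21, with 3 at an unadjusted p under 0.05 and 0 called by DESeq2. With the replicate block 3 of the list were called in each line.

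Of 11 tested genes of methionine salvage and the apoptosome, edgeR called 0 in PAX6_Ta KO, with 3 at an unadjusted p under 0.05 and 0 called by DESeq2, and 1 was lower in PBX3_Cl KO. Of the 8 other HIPK and DYRK kinases, edgeR called 0 in either line, with 1 at an unadjusted p under 0.05 in each and 0 called by DESeq2. With the replicate block, 2 of the salvage and apoptosome list were lower in each line, and 1 of these kinases was higher in PAX6_Ta KO.

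Of 15 genes of the CUL3 and NEDD4 ubiquitin ligases, 1 was called in each line, or 2 with the replicate block. NEDD4, a HECT ubiquitin ligase, was higher in PAX6_Ta KO (0.95 ± 0.22, edgeR adjusted p = 0.0152), and the call was lost without Control replicate 2 (0.147) or PAX6_Ta KO replicate 1 (0.0805). Of 11 tested LDL receptor family genes beside LDLRAD3, 1 was called in each line (medians 0.37 and 0.42), or 2 and 3 with the replicate block. LRP12, a membrane protein of this family, had 920 and 1011 counts in Control, 3748 and 3497 in PAX6_Ta KO, and 2412 and 1163 in PBX3_Cl KO. It rose in PAX6_Ta KO (2.03 ± 0.31, edgeR adjusted p = 9.12e-04) and in PBX3_Cl KO (1.18 ± 0.30, edgeR adjusted p = 0.0295). The second call was lost without Control replicate 1 (0.0909) or PBX3_Cl KO replicate 1 (0.187), with upper-quartile factors (0.0521) and with a filter of at least 1 CPM in 2 libraries (0.0602).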

How the data were processed

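RNA-seq of 6 K562 libraries was analysed, 2 in each of 3 groups (Control, PAX6_Ta KO, PBX3_Cl KO), grouped and numbered by the sample labels. The authors made stranded libraries (Collibri kit), trimmed adaptors with Cutadapt (version 3.4), aligned reads to GRCh37 (release 75) with STAR and deposited a table of raw gene counts without normalization. The version of STAR and the strand setting used for counting were not given in the sources used. The table has 4 further sample columns that match no label, which were not used. The authors' comparison tables, which hold DESeq2 log2 fold changes and p-values, were not used either.

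Counts were tested with edgeR (version 4.0.16, in R version 4.3.3): filterByExpr with the 3 groups, TMM scaling, 1 quasi-likelihood fit of all 6 libraries with group as the only term (prior df 9.18, common BCV 0.215) and Benjamini-Hochberg adjustment over 20746 genes, called below 0.05. Errors are standard errors of the log2 fold change or, for levels, SDs of 2 libraries. CPM are TMM-scaled, and levels per kb use the merged exons of GENCODE release 44 lifted to GRCh37, which also gave gene positions. Distances run from the PAX6_Ta locus as listed in the study's supplementary tables, not from the guide cuts, to the nearest gene edge. Promoter sequences are from RefSeq (GRCh38.p14) and all 10 genes matched. The fit was tested on simulated data.

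Alternatives were the replicate number as a block, DESeq2 (version 1.42.0), median-ratio and upper-quartile factors, no filter on low counts, at least 1 CPM in 2 libraries, a fit of the 2 groups compared, the 11p median (336 tested genes outside the window) taken out of 11p genes, and each library left out in turn. In a fit that leaves a group with 1 library, that library is assumed to vary like the others. Across genes, replicate 1 minus replicate 2 correlated between groups at 0.491 (Control and PAX6_Ta KO), 0.257 (Control and PBX3_Cl KO) and 0.466 (PAX6_Ta KO and PBX3_Cl KO). The shared numbers were therefore taken to pair the libraries, and the blocked value stands beside a result where it changes the call or moves a count by over 1.5 times. Replicates differed by more than sampling noise (chi-square per degree of freedom 42.7 to 129.5). Named were all 10 genes, RCN1 and PAX6 as landmarks and, of each of the 9 pathway lists, up to 3 called genes with the smallest adjusted p in PAX6_Ta KO against Control. EPCAM, KRT18, KRT19, HBG2, HBE1, LMO2, COL1A1, COL1A2 and the markers at or near 0 counts were named after their values were seen. The genes and the lists (hyaluronan and CD44 partners, ETS factors, TRAF6 and NF-κB signalling, antioxidant enzymes, pyruvate dehydrogenase, methionine salvage and apoptosome, HIPK and DYRK kinases, CUL3 and NEDD4 ligases, LDL receptor family and 4 marker lists) were chosen with earlier results of these data known. An exact interval covers counting error only.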

Additional observations from a re-analysis of the deposited data

How the results depend on the processing

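No called difference of the 10 genes changed its direction under the 14 alternatives. The direction of some differences that had not passed the test did. With the 11p median taken out, the PBX3_Cl KO differences of ABTB2, CAT, APIP and PDHX became -0.28, -0.27, -0.26 and -0.09. Leaving out each library in turn, the PBX3_Cl KO difference of ABTB2 ranged from -0.50 (without PBX3_Cl KO replicate 2) to 0.81 and that of APIP from -0.07 (without PBX3_Cl KO replicate 1) to 0.64. Between the edited lines, HIPK3 ranged from -0.19 to 0.03 and TRIM44 from -0.08 to 0.32. In the same fit the median log2 fold changes of the 10 genes were 0.32 in PAX6_Ta KO and 0.16 in PBX3_Cl KO. Both are lower since 0.60 is subtracted by construction. With the replicate block, 4 of the 10 were called between the edited lines, and 33, 27 and 35 pathway genes were called in PAX6_Ta KO, PBX3_Cl KO and between the lines, in place of 19, 17 and 22. Leaving out each library in turn, edgeR called 2 to 10 of the 10 genes in PAX6_Ta KO, 3 to 5 in PBX3_Cl KO and 0 to 4 between the lines. The count of 0 came without PAX6_Ta KO replicate 1, where 2 of the 10 had an unadjusted p under 0.05 and DESeq2 was not run. The median log2 fold changes were then 0.84 to 0.98, 0.63 to 0.90 and 0.14 to 0.54, and the pathway genes called numbered 9 to 27, 8 to 23 and 8 to 26. The lowest of these came without PAX6_Ta KO replicate 1, Control replicate 2 and PAX6_Ta KO replicate 1. All 10 of the 10 genes were called in PAX6_Ta KO only without PBX3_Cl KO replicate 1 or 2, which are not part of that comparison. Fewer were called in each fit that left 1 library in Control or PAX6_Ta KO. The share of all tested genes called in the fits without a library is not given. Why single libraries changed the counts was not tested. With 2 libraries a group and 6 to 77 counts of EHF per library, its fold change is the least precise of the 10.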
